A study of Xenopus laevis with 42 samples.

Results

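At gastrula, tissue that developed from the D1 blastomere as an explant was compared with the tissue that the same blastomere gave rise to inside the embryo. The comparison holds 6 of the 42 samples of the study, 3 samples of progeny and 3 explants, each labelled by frog, all at stage 11 and 11 hours of age. Other stages used were blastula (stage 8, 5 hours), early neurula (stage 14, 16 hours) and mid neurula (stage 17, 18 hours). The study followed neural cell fate in Xenopus laevis, the African clawed frog. D1 is a dorsal animal blastomere of the early cleaving embryo, and it was either injected with a fluorescent dye, so that its descendants could be dissected by their fluorescence, or taken out of the embryo to develop apart from it. The labels name no strain, genotype or agent other than the dye, and give neither the number of embryos behind a sample nor the medium in which the explants developed. For each tissue and stage the authors deposited 1 pooled column of TPM, a measure of each transcript's share of the RNA that is corrected for transcript length, so the 3 frogs of a group cannot be seen apart. A row is 1 gene model, named where possible by its symbol and by its copy, L or S, since this species carries paired copies (homeologs) of many genes on its long and short chromosomes.

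Rows were matched by name between the progeny table and the explant table, and the 26351 of 44962 rows (58.6%) with at least 1 TPM in any of the 14 columns of the series were kept. Differences are given as explant minus progeny on the log2(TPM + 1) scale, which understates the change of rows with few TPM. With 1 pooled value per tissue no difference has a replicate check and none was tested. A row is called higher or lower here only by size, where the difference is at least 2-fold on that scale, and every other row is given by its values. Genes are described by lists whose counts take the L and S copies as separate rows, and a row can stand on several lists. The number of reads behind each value is unknown, and the levels were set across separate tables that may have been scaled separately.

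The gastrula is the stage at which the germ layers are laid down and rearranged. In Xenopus, VegT, nodal, Wnt and FGF signals set up mesoderm and endoderm in the vegetal and marginal cells, and the dorsal lip, or Spemann organizer, secretes antagonists of BMP and Wnt. Animal cells shielded from BMP become neural plate, and those exposed to it become epidermis with its ionocytes and multiciliated cells. The dorsal animal lineage contributes mainly to the brain and retina, with smaller parts in other dorsal tissues.

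Markers at 1 TPM or more were present for every cell type examined in the progeny, and for all but somitic mesoderm in the explants. Neural plate markers summed to 1861 TPM in the progeny and 1173 TPM in the explants over 13 rows, of which 4 were lower and 0 higher, so both tissues carried neural plate transcripts. Of the 8 rows marking somitic mesoderm, all 8 were lower in the explants, where none reached 1 TPM, and their sum was 364 TPM in the progeny against 2.74 TPM. The 8 endoderm rows were all lower, with a sum of 801 against 131 TPM. Epidermal markers went the other way, with 8 of 12 rows higher and a sum of 582 TPM in the progeny against 1541 TPM in the explants. Of the 9 axial mesoderm rows, which mark the notochord and prechordal plate, 4 were lower and 0 higher, with a sum of 1525 against 693 TPM. In these bulk profiles, fewer cells of a type and less RNA per cell cannot be told apart, and the part that cell makeup plays in each result below was not tested.

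Across all rows, 2.20% of the 26351 were higher in the explants and 3.42% were lower, and the balance moved further toward lower rows as the difference grew. At 4-fold or more, 61 rows were higher and 236 lower. At 8-fold or more, the counts were 11 and 59. Lower rows held 3.15% of all progeny TPM and 0.824% of all explant TPM, whereas higher rows held 0.835% of progeny TPM and 2.95% of explant TPM. That last share includes 4893 TPM from 1 unnamed row, Xelaev18029462m, which is listed at 0 in the progeny and may be a failed estimate there. The 24870 rows under 2-fold held about the same share of both tissues, 96.0% of progeny TPM and 96.2% of explant TPM, and the median difference over all rows was 0.05.

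**Figure D1:**
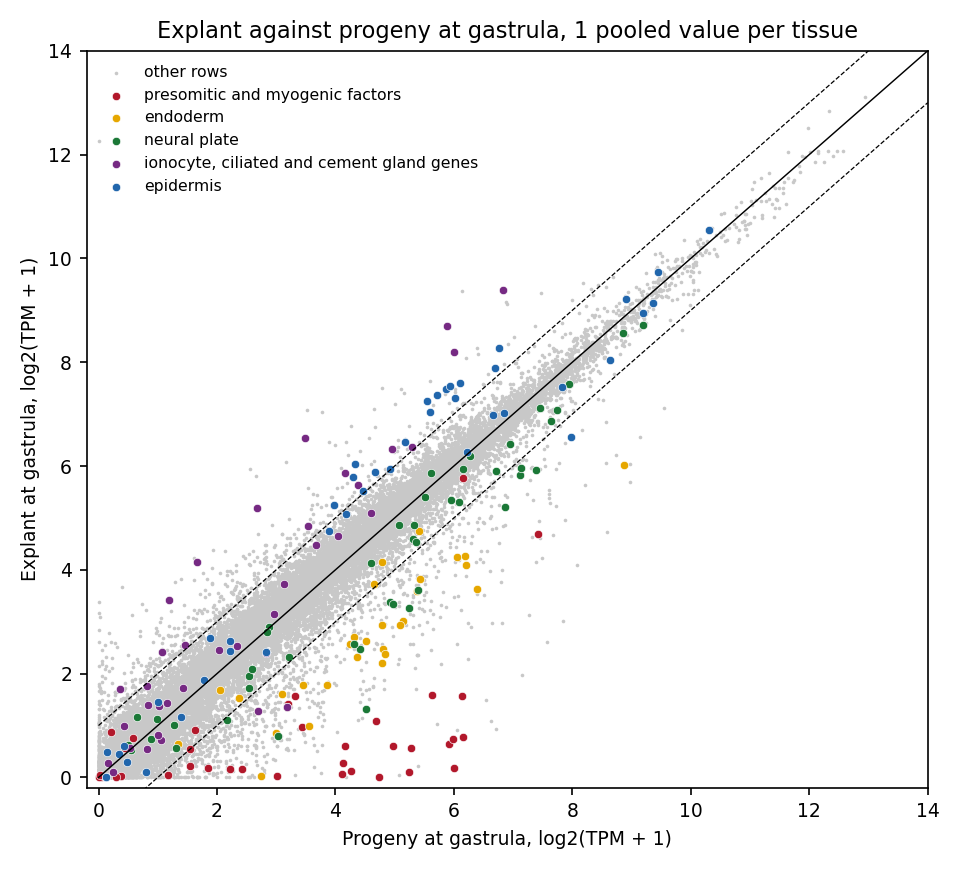
Level of each of the 26351 kept rows at gastrula, progeny on the x axis and explant on the y axis, both as log2(TPM + 1) with 1 pooled value per tissue. The solid line marks equal levels and the dashed lines a 2-fold difference. Presomitic and endoderm rows lie mostly below the lower dashed line, and neural plate rows along and below the solid line. On or above the upper dashed line lie 16 of 43 epidermal rows and 15 of 37 ionocyte, ciliated and cement gland rows.

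Most of the lower rows were genes that had come on in the progeny after the blastula. Of the 900 lower rows, 566 (62.9%) were under 1 TPM in both tissues at blastula, and 241 of these were still under 1 TPM in the explants at gastrula. Another 248 (27.6%) had been present in both tissues at blastula. The higher rows had the opposite makeup: 308 of 581 were already present in both tissues at blastula and 208 were under 1 TPM there. Counted the other way, 7.91% of the 7160 rows that were low at blastula were lower at gastrula, against 1.38% of the 17922 rows that were present. The corresponding shares of higher rows were 2.91% and 1.72%, so rows low at blastula were called more often in both directions, and most clearly among the lower rows.

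The early mesoderm list, built around the T-box factors that specify mesoderm, was lower in the explants almost throughout. Of its 37 rows, 31 were lower and 0 higher, and the median was -1.80 against 0.05 over all rows. Brachyury, the T-box factor of the forming mesoderm and notochord, had 499.8 TPM in the progeny and 64.7 TPM in the explants for t.S, a difference of -2.93. The S copy of vegt, a T-box factor that acts in endoderm and mesoderm formation, had 377 TPM in the progeny and 65.3 TPM in the explants. Both eomes copies, a further T-box gene of the mesendoderm, were lower by a smaller step, with 61.9 TPM against 23.9 TPM for eomes.L. The summed level of the list was 2566 TPM in the progeny and 410 TPM in the explants, 16.0% of the progeny level, so these transcripts were reduced in the explants and not absent. Part of the explant sum came from vegt, which was already present there at blastula, at 97.7 TPM for vegt.L and 61.7 TPM for vegt.S. In contrast t.S had 0.134 TPM in the explants at blastula.

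Presomitic and muscle regulators had the most negative median of the 25 lists. Of 36 rows, 25 were lower and 0 higher, with a median of -2.37, and the explants held 10.8% of the progeny's summed level (889 against 96.1 TPM). The S copy of myf5, which directs cells into the muscle lineage, had 62.2 TPM in the progeny and 0.678 TPM in the explants. The L copy of myod1, its partner in that decision, had 30.5 and 0.520 TPM. Segmentation genes were lower as well: mespb.L, which sets somite boundaries, had 18.3 TPM in the progeny and 0.0938 TPM in the explants, and tbx6.S, the T-box gene of the presomitic mesoderm, had 16.3 and 0.0469 TPM. The 4 foxc1 and foxc2 rows, forkhead genes of paraxial mesoderm, ranged from 16.9 to 48.4 TPM in the progeny and did not exceed 2.00 TPM in the explants. Larger amounts remained for pcdh8.2.L, a protocadherin of the paraxial mesoderm, with 169.7 TPM in the progeny and 24.9 TPM in the explants. The 11 rows of this list under 2-fold included rows that were low in both tissues, since 21 of the 36 reached 5 TPM at gastrula and 20 of those were lower. Over all 13941 rows reaching 5 TPM in either gastrula column, 2.96% were higher and 4.36% lower.

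Genes of the posterior axis stood far lower in the explants. All 6 cdx rows, homeobox genes that promote posterior identity, were lower, with a median of -3.31 and a summed level of 566 TPM in the progeny against 50.9 TPM in the explants. The S copy of cdx1 had 166 TPM in the progeny and 16.8 TPM in the explants, and cdx2.S had 109 and 12.6 TPM. The hox genes, which set position along the axis, summed to 232 TPM in the progeny and 8.40 TPM in the explants over 41 rows, of which 9 were lower. That sum came largely from the paired hoxd1 rows, and hoxd1.L had 92.7 TPM in the progeny and 1.81 TPM in the explants. Only 4 of the 41 hox rows reached 5 TPM in either tissue, so for most of them a difference was hardly measurable at this stage.

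The retinoic acid pathway, which posteriorizes the neural plate, differed at some of its genes. Both copies of aldh1a2, the main enzyme of retinoic acid synthesis in the embryo, were lower: aldh1a2.L had 111 TPM in the progeny and 15.0 TPM in the explants, and aldh1a2.S had 68.7 and 8.41 TPM. The rdh10 rows of the same pathway were under 2-fold, at 153 and 126 TPM for rdh10.L and 65.8 and 65.7 TPM for rdh10.S. The degrading enzyme cyp26a1 differed less, with 183 TPM in the progeny and 79.8 TPM in the explants for the L copy and 234 and 129.7 TPM for the S copy, which was under 2-fold. Receptor levels split: rara.S was lower, with 27.5 TPM in the progeny and 6.77 TPM in the explants, whereas rarg.S had 173 and 189.8 TPM. Over enzymes and receptors together, 5 of 16 rows were lower and 0 higher.

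The ventral and lateral mesoderm list, which holds genes of blood, heart and kidney precursors, had 12 of 25 rows lower and 0 higher. Its median was -0.46, but its summed level in the explants was 67.6 TPM against 614 TPM in the progeny, since the cdx genes it contains carried much of it. Only 7 of the 25 rows reached 5 TPM, and all 7 were lower. They were cdx1.S and both copies of cdx2 and cdx4, described above, and both copies of the kidney gene osr2. The S copy of osr2 had 12.4 TPM in the progeny and 1.57 TPM in the explants. The rows of tal1, lmo2, hand2, nkx2-5 and tbx20 were under 5 TPM in both tissues and under 2-fold, whereas etv2.S was lower, at 3.36 and 0.529 TPM. The counts therefore say little about blood and heart genes.

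Endoderm genes were lower as a group. Of 31 rows, 25 were lower and 0 higher, with a median of -1.85. The L copy of sox17a, which specifies endoderm, had 72.4 TPM in the progeny and 16.1 TPM in the explants. The Mix family homeobox genes downstream of nodal behaved alike: mixer.L had 72.1 and 18.3 TPM, and mix1.L had 26.5 and 6.64 TPM. All 6 rows of gata4, gata5 and gata6, zinc finger factors of endoderm and heart precursors, were lower, from 13.5 to 34.2 TPM in the progeny and from 2.45 to 7.04 TPM in the explants. The list's summed level in the explants was 275 TPM, 21.8% of the progeny level, so endodermal transcripts were present in the explants at levels well above those of the muscle genes.

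**Figure D2:**
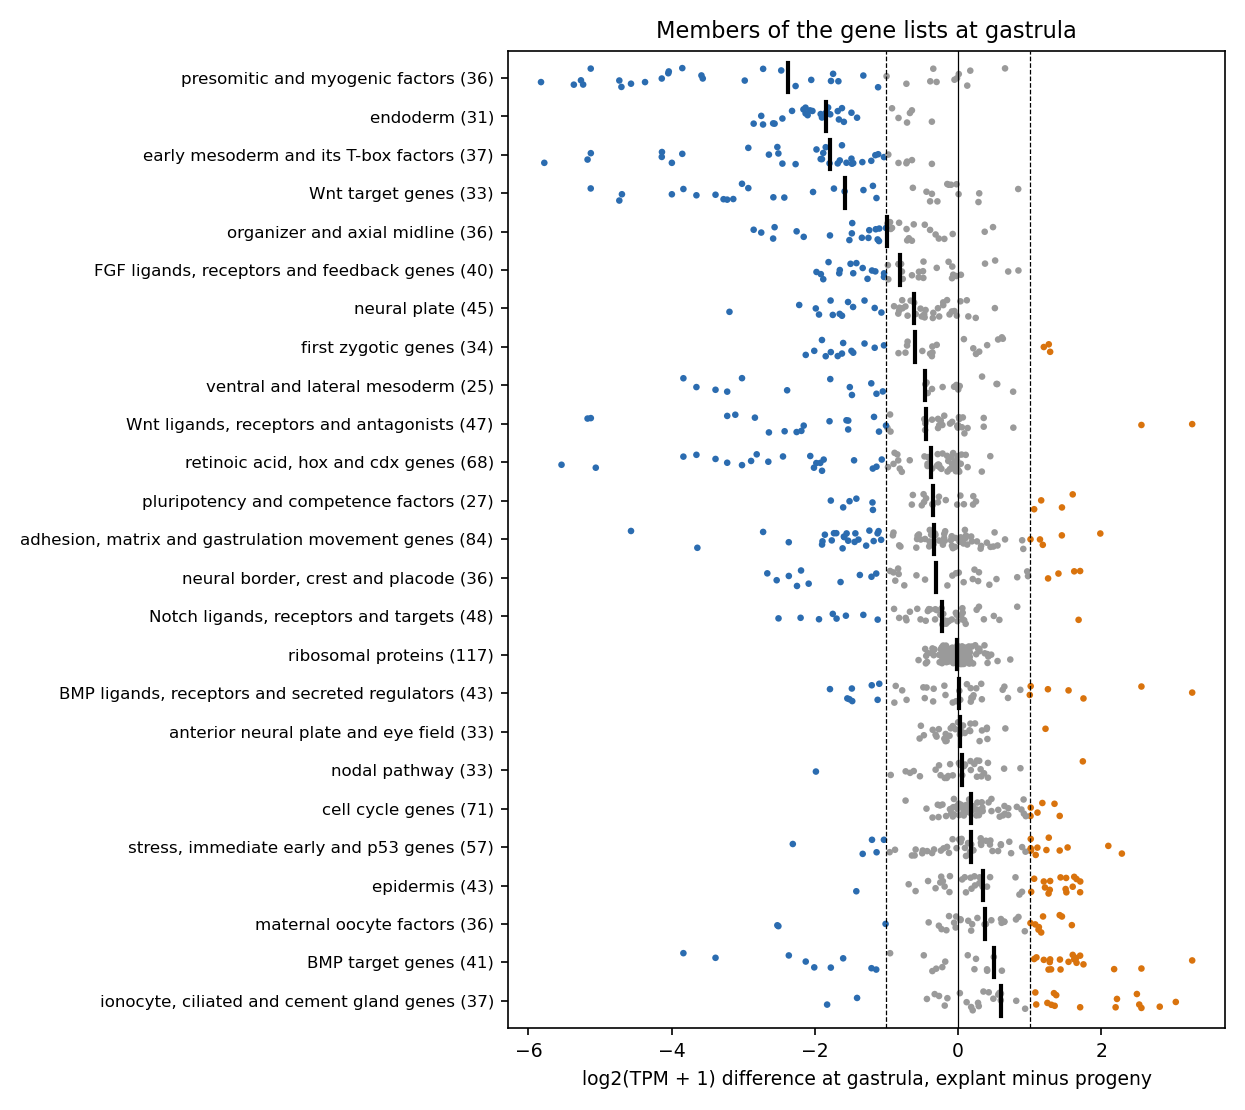
Each point is 1 kept row of a gene list, placed on the x axis by its log2(TPM + 1) difference at gastrula, explant minus progeny, with the number of rows in brackets and a black bar at the list's median. Blue points are at least 2-fold lower and orange points at least 2-fold higher in the explants; the medians run from -2.37 for presomitic and myogenic factors to 0.60 for ionocyte, ciliated and cement gland genes.

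The organizer list was divided by function. Over its 36 rows, 18 were lower and 0 higher, with a median of -0.996. Secreted factors were lower in 14 of 21 rows, and transcription factors in 4 of 14. Among the secreted factors, cer1.S, encoding the Cerberus antagonist of BMP, nodal and Wnt ligands, had 467 TPM in the progeny and 63.7 TPM in the explants. The Wnt antagonist dkk1 had 35.7 against 6.69 TPM for the L copy and 41.7 against 8.58 TPM for the S copy. Noggin, a BMP antagonist, was closer, with 27.6 TPM in the progeny and 12.3 TPM in the explants for nog.L. The explants thus held measurable amounts of organizer transcripts, with 1471 TPM summed over the list against 3344 TPM in the progeny.

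Among the organizer's transcription factors, the endodermal and floor plate forkhead gene foxa2 was lower in both copies, with 26.6 TPM in the progeny and 3.61 TPM in the explants for foxa2.S. The dorsal midline gene foxa4 had 365 TPM in the progeny and 153 TPM in the explants for the L copy, and 258 and 134 TPM for the S copy, which was under 2-fold. Goosecoid, the homeobox gene of the organizer and prechordal plate, did not share that direction. Its L copy had 30.0 TPM in the progeny and 42.5 TPM in the explants (0.49) and its S copy 26.0 and 33.9 TPM (0.37), both under 2-fold.

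Wnt signalling differed most at its ligands and target genes. Of 13 ligand rows, 8 were lower and 0 higher, and the summed level was 351 TPM in the progeny and 68.3 TPM in the explants. The L copy of wnt8a, the ligand of ventrolateral mesoderm, had 65.1 and 0.890 TPM, and wnt11b.L, a ligand of the dorsal marginal zone that acts in cell movement, had 155 and 52.0 TPM. Both wnt5b copies were lower too, with 38.8 TPM in the progeny and 7.73 TPM in the explants for wnt5b.L. Of 21 receptor rows, 3 were lower. These included both copies of fzd10, with 39.4 against 3.32 TPM for fzd10.L, whereas the more abundant fzd7.L had 370.2 TPM in the progeny and 270.1 TPM in the explants. Of 11 rows for secreted antagonists, 6 were lower.

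Wnt target genes were lower in 20 of 33 rows, with 0 higher and a median of -1.58. The most abundant was sp5l, a zinc finger gene induced by Wnt, with 745 TPM in the progeny and 138 TPM in the explants for sp5l.L and 566 and 93.8 TPM for sp5l.S. The feedback gene axin2, which promotes breakdown of beta-catenin, had 15.2 and 0.841 TPM for its L copy, and lef1.L, a transcription factor of the pathway, 20.3 and 5.40 TPM. The summed level of the targets in the explants was 17.0% of that in the progeny, and that of the ligands was 19.5%. Among the lower target rows were all those of t, msgn1 and the cdx genes, which also stand on the mesoderm or posterior lists above. The targets' sum is therefore not separate from the sums of those lists.

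FGF signalling showed a similar division between ligands and receptors. Of 9 ligand rows, 6 were lower, with fgf8.L, a ligand active around the blastopore, at 43.9 TPM in the progeny and 10.4 TPM in the explants. Of 8 receptor rows, 0 were called in either direction, and their median was 0.01. The most abundant receptor row, fgfr4.S, had 109 TPM in the progeny and 195 TPM in the explants (0.84). Of 23 feedback and response rows, 9 were lower and 0 higher. The inhibitor spry2, which is induced by FGF and limits it, had 57.0 and 17.4 TPM for its S copy, and the response gene egr1.L had 18.7 and 6.81 TPM.

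Few nodal pathway rows were called, with 1 row higher, 1 lower and a median of 0.06 over 33 rows, of which 21 reached 5 TPM. The lower row was gdf3.S, a TGF-beta family ligand of the mesoderm known in Xenopus as Derrière, with 160.3 TPM in the progeny and 39.7 TPM in the explants. The higher row was foxh1.2.L, a copy of the forkhead partner of SMAD proteins, with 11.9 and 42.2 TPM. Nodal itself was under 2-fold, with 12.4 TPM in the progeny and 5.99 TPM in the explants for nodal.L. Co-receptor tdgf1.3.L had 297 and 373 TPM. By role, the 8 ligand rows summed to 179 TPM in the progeny and 53.2 TPM in the explants, most of it from gdf3.S. Only 2 of these ligand rows reached 5 TPM. The 21 rows of receptors, co-receptors and transducers summed to 705 and 898 TPM.

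BMP ligands, receptors and secreted regulators together gave 7 of 43 rows higher and 8 lower, with a median of 0.02. Of 8 rows for the antagonists chordin, noggin, follistatin and gremlin, which bind and block ligands, 6 were lower and 0 higher, with a summed level of 730 TPM in the progeny and 247 TPM in the explants. The L copy of chordin, which binds BMP ligands, is split in the tables into chrd.1.L, at 210.5 and 60.2 TPM, and chrd.2.L, at 174 and 60.2 TPM. Of 14 ligand rows, 1 was lower, namely bmp2.S, with 8.78 TPM in the progeny and 3.24 TPM in the explants. The most abundant ligand row, bmp7.2.L, had 381 and 696 TPM (0.87). Receptors and SMADs had 1 row in each direction out of 12. The other 6 higher rows were both copies of szl and bambi, described below, and of twsg1, a secreted modulator of chordin and BMP, with 24.3 TPM in the progeny and 59.3 TPM in the explants for twsg1.L.

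**Figure D3:**
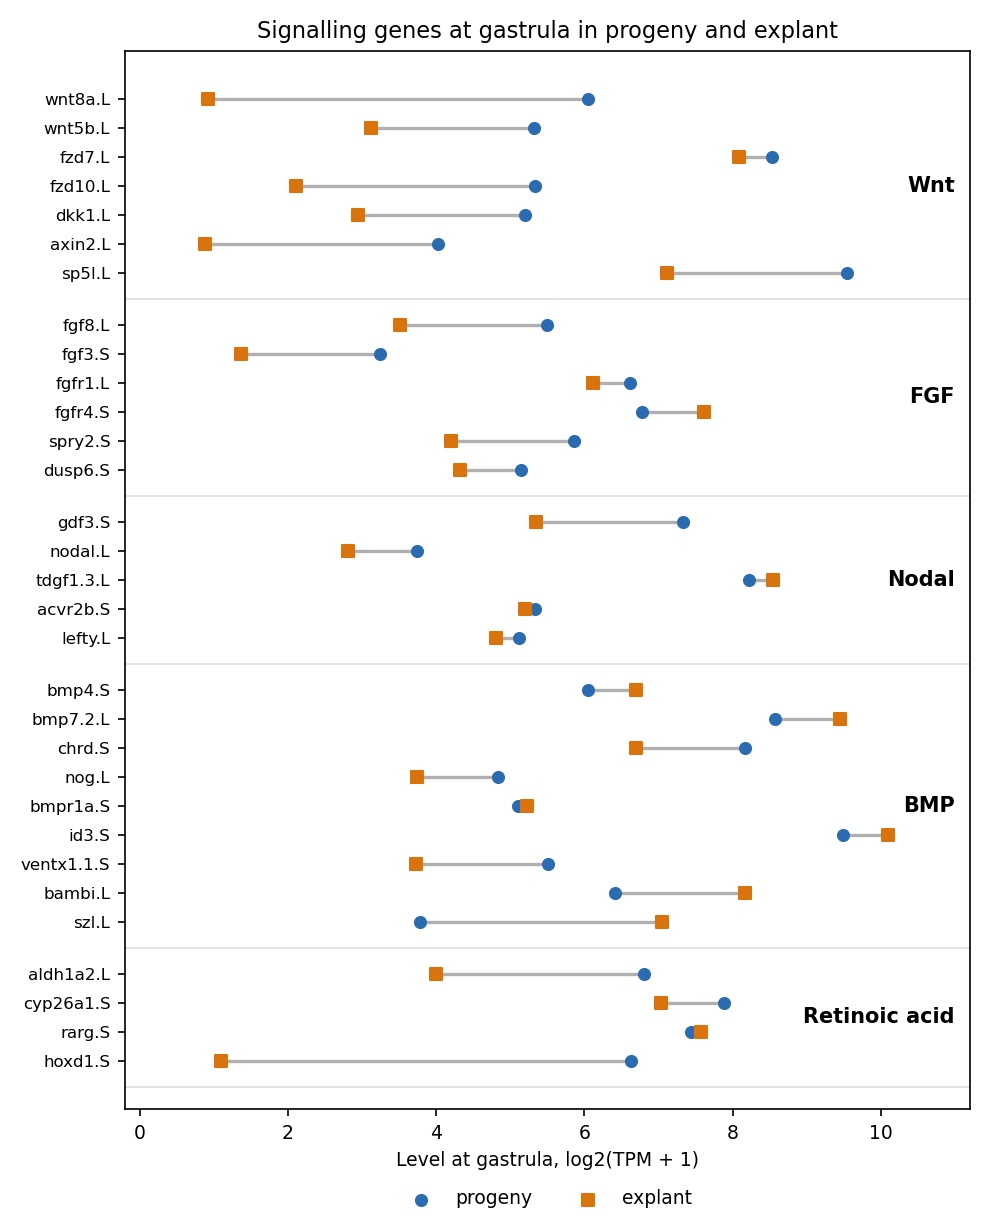
Levels of signalling rows at gastrula in the progeny (blue circles) and the explants (orange squares) as log2(TPM + 1), 1 pooled value each, joined by a grey line and grouped by pathway. Ligands and targets of Wnt and FGF sit to the left in the explants, as does the receptor fzd10.L. Other receptors such as fzd7.L, fgfr1.L, bmpr1a.S and rarg.S lie close together, and the BMP targets bambi.L and szl.L sit to the right.

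BMP target genes were divided into a higher and a lower set. Of 41 rows, 19 were higher and 9 lower, with a median of 0.50. The higher rows included szl.S, which encodes Sizzled, a secreted feedback inhibitor of chordin-cleaving proteases, with 13.8 TPM in the progeny and 86.6 TPM in the explants. The pseudoreceptor bambi, another feedback inhibitor, had 84.2 and 286 TPM for bambi.L. Both id2 copies, which encode an inhibitor of bHLH factors, were higher, with 51.9 and 165 TPM for id2.L, and so were both copies of the inhibitory SMAD gene smad7. The more abundant id3, a sister gene of id2, was under 2-fold, with 715 TPM in the progeny and 1094 TPM in the explants for id3.S.

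The 9 lower BMP targets were all homeobox genes, most of them active in ventral or posterior tissue. Both ventx3.2 rows were lower, with 11.1 TPM in the progeny and 1.77 TPM in the explants for ventx3.2.L. The S copy of ventx1.1 had 44.4 and 12.3 TPM and that of ventx1.2 had 49.9 and 15.7 TPM, whereas their L copies were under 2-fold, at 21.8 and 26.1 TPM for ventx1.1.L and 44.3 and 34.3 TPM for ventx1.2.L. For msx2, which acts in ventral mesoderm and the neural border, msx2.S had 20.7 TPM in the progeny and 3.21 TPM in the explants. The remaining lower rows included both cdx4 copies, described above with the posterior genes.

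Among 45 neural plate rows, 13 were lower and 0 higher, and the median was -0.61. The SoxB1 genes, which maintain neural progenitors, had 0 of 5 rows called, with 459 TPM in the progeny and 378 TPM in the explants for sox3.S. Zic1, a zinc finger factor of the early plate and its border, was under 2-fold, with 212 TPM in the progeny and 134 TPM in the explants for zic1.S. Both copies of foxd4l1.1, which keeps neural precursors immature, were lower, at 139 and 61.3 TPM for the S copy. Geminin, a chromatin and replication regulator that acts in the same step, was under 2-fold, at 583 and 421 TPM for gmnn.S.

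Larger differences on the neural list came from genes with posterior or regional expression. Irx3, an Iroquois gene of the posterior plate, had 21.9 TPM in the progeny and 1.50 TPM in the explants for irx3.L. The forkhead gene foxb1 had 37.0 and 8.60 TPM for its L copy, and hes3, a bHLH repressor that blocks differentiation, had 20.2 and 4.53 TPM for its L copy. Genes of the anterior plate and eye field, by contrast, gave 0 lower rows of 33 and a median of 0.02. The single higher row was hesx1.L, a homeobox gene of the forebrain and pituitary region, with 10.1 TPM in the progeny and 24.9 TPM in the explants. Only 5 of the 33 rows reached 5 TPM at gastrula, and otx2.S, a head gene among the abundant ones, had 93.5 and 81.7 TPM.

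Neural border, crest and placode genes were mixed, with 10 of 36 rows lower and 4 higher. The lower rows included both pax3 copies, the paired box genes of the border, with 12.0 TPM in the progeny and 1.25 TPM in the explants for pax3.S. The crest and mesoderm gene snai1.S, a repressor active in cell migration, had 55.6 and 10.9 TPM, and both twist1 rows were lower as well. The higher rows included dlx5, a distal-less gene of the border and the non-neural ectoderm, with 45.7 TPM in the progeny and 151 TPM in the explants for dlx5.L.

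Of 23 rows for epidermal transcription factors, 16 were higher and 0 lower, with a median of 1.26. Their summed level was 782 TPM in the progeny and 2129 TPM in the explants. The AP-2 factors, which open the epidermal programme, were higher in all 4 rows of tfap2a and tfap2c, with 60.1 TPM in the progeny and 184 TPM in the explants for tfap2c.S. Grainyhead-like grhl3, which drives epidermal barrier genes, had 108 and 309.6 TPM for its L copy, and klf5.L had 19.0 and 64.4 TPM. The gata2 rows, which mark ventral ectoderm at this stage, were also higher, at 51.7 and 165 TPM for gata2.S. Keratins and surface proteins did not share this, with 0 of 20 rows higher and nearly equal sums of 4879 and 4929 TPM. The abundant surface protein gene epcam.S had 1264 TPM in the progeny and 1489 TPM in the explants, and krt18.S, a keratin of simple epithelia, was the lower row, at 250.4 and 92.9 TPM.

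The list of ionocyte, ciliated and cement gland genes had the largest positive median of the 25 lists, 0.60, with 15 of 37 rows higher and 2 lower. The lower rows were both copies of foxa1, which also stands on the endoderm list. The foxi genes, forkhead factors of early ectoderm and of the ionocytes, were higher in 6 of 8 rows, with 263 TPM summed in the progeny and 1522 TPM in the explants. The S copy of foxi4.2 had 113 and 673 TPM, and foxi1.L, the ionocyte regulator, had 63.1 and 294 TPM. Among 15 rows for multiciliated cell regulators, 9 were higher and 0 lower. Among them gmnc.L, the geminin-related gene that starts the ciliated programme, had 5.36 TPM in the progeny and 35.7 TPM in the explants, and ccno.L, a cyclin needed to multiply centrioles, had 16.9 and 57.2 TPM. Both foxj1 copies, which switch on motile cilia genes, were higher, at 20.0 and 48.7 TPM for foxj1.S.

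Several maternal transcripts stood at a higher level in the explants. Of 36 maternal oocyte rows, 9 were higher and 3 lower, with a median of 0.38. The L copy of cpeb1, which controls polyadenylation of stored mRNA, had 452 TPM in the blastula progeny and 7.53 TPM at gastrula, and the explants had 421 and 24.6 TPM. The oocyte-type POU gene pou5f3.3 was higher in both copies, with 14.4 TPM in the progeny and 41.1 TPM in the explants for pou5f3.3.S. It did not represent the pluripotency list, where 6 of 27 rows were lower and 4 higher, with a median of -0.35. The lower rows there included sall1.L, a zinc finger gene, at 173 and 59.7 TPM, and lin28a.L, an RNA-binding regulator of early development, at 189.9 and 82.4 TPM. The other copy sall1.S was under 2-fold, at 76.1 and 67.5 TPM, as was the zygotic POU gene pou5f3.1.L, at 1047 and 749 TPM. The Krüppel-like factor klf2 was higher in both copies, though the copies differed in course. Its L copy fell from 256 TPM in the progeny and 294 TPM in the explants at blastula to 24.3 and 107 TPM at gastrula. At early neurula klf2.L had 0.775 and 42.4 TPM. The S copy of klf2 had 38.8 and 58.4 TPM at blastula and 17.2 and 87.7 TPM at gastrula. The sulfotransferase row hs3st1.L had 54.7 and 75.4 TPM at blastula and 4.90 and 60.2 TPM at gastrula, whereas hs3st1.S was low in both tissues by gastrula, at 1.44 and 2.06 TPM. Of 34 first zygotic rows, genes switched on soon after the onset of embryonic transcription, 13 were lower and 3 higher. The 3 lower maternal rows included both copies of vegt, which is transcribed anew in mesoderm at this stage.

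Cell cycle genes gave 6 of 71 rows higher and 0 lower, with a median of 0.18. The mitotic cyclin rows ccnb1.L and ccnb1.S were higher, with 49.3 TPM in the progeny and 113 TPM in the explants for ccnb1.L. Both rows had fallen from far higher levels at blastula, where ccnb1.L had 2239 and 2311 TPM. The rows more abundant at gastrula, ccnb1.2.L, at 1091 and 971 TPM, and ccnb1.2.S, at 372 and 371 TPM, were under 2-fold. Of 18 replication rows, 1 was higher, and their median was 0.51. Of 12 rows for p53 response genes, which mammalian cells induce on DNA damage, 5 were higher and 0 lower, with cdkn1a.L, an inhibitor of cyclin-dependent kinases, at 9.29 and 26.5 TPM. Over the whole stress and immediate early list, 12 of 57 rows were higher and 5 lower. The ribosomal protein genes, the largest list, had 0 of 117 rows called in either direction and a median of -0.02.

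Of 84 rows for adhesion, matrix and gastrulation movements, 24 were lower and 5 higher. Collagen-modifying plod2.L, a lysyl hydroxylase, had 39.9 TPM in the progeny and 2.28 TPM in the explants, and the hyaluronan synthase has2.L had 47.4 and 8.40 TPM. The planar polarity gene prickle1, which acts in convergent extension, had 98.4 and 32.0 TPM for its S copy, and the guidance receptor epha4 had 99.4 and 26.7 TPM for its L copy. The higher rows included both copies of pdgfa, a growth factor made by the blastocoel roof that guides mesoderm, with 5.49 TPM in the progeny and 24.7 TPM in the explants for pdgfa.L. Its receptor pdgfra, which is carried by mesoderm, was lower in both copies, at 7.65 and 2.66 TPM for pdgfra.L. The chemokine gene cxcl12.S was higher too, with 11.3 and 32.6 TPM.

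Homeologs gave a second reading of each gene within the same libraries, though copies of similar sequence may share reads. Among 6898 pairs of L and S copies, 116 had both copies lower, of 347 with at least 1 lower. Both were higher in 48 pairs, of 205 with at least 1 higher, and 0 pairs had copies called in opposite directions. Across pairs the differences of the copies had a Pearson r of 0.61, and 0.75 over the 3667 pairs in which both copies reached 5 TPM. These values describe rows of the same pooled columns and are not replicates.

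The stages on either side placed the gastrula differences in time. At blastula 1.43% of rows were higher and 1.46% lower. These shares were 10.9% and 12.9% by early neurula, then 12.0% and 13.6% in the mid neurula columns. Of the 900 rows lower at gastrula, 529 (58.8%) were lower at early neurula, where they formed 15.5% of that stage's lower rows, and 367 (40.8%) were lower at both neurula stages. Of the 581 higher rows, 195 (33.6%) were higher at early neurula, 6.77% of that stage's higher rows, and 147 (25.3%) at both. At blastula, 88 rows of the lower set and 86 of the higher set were already apart the same way, 22.8% of each blastula list. List by list, 0 of the 36 presomitic rows were called at blastula, 25 at gastrula and 36 at early neurula, all lower. Endoderm rows went from 0 at blastula to 25 lower at gastrula and 16 by early neurula, with 5 lower in the mid neurula. Some of these rows were too low in both tissues by then to be called, such as mix1.L, at 0.469 and 0.305 TPM at early neurula. Others such as sox17a.L stayed measurable, at 32.7 TPM in the progeny and 3.22 TPM in the explants at early neurula and 12.3 and 7.68 TPM at mid neurula. The falling count therefore does not show by itself that the tissues drew closer.

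For the neural lists most of the difference came later. Neural plate rows lower in the explants numbered 13 of 45 at gastrula and 38 at early neurula, and anterior neural rows went from 0 of 33 to 26. Only 5 of the 33 anterior rows reached 5 TPM at gastrula, so for most of them a difference was hardly measurable then. The S copy of sox2 had 175 TPM in the progeny and 137 TPM in the explants at gastrula, and 328 and 74.7 TPM at early neurula. Epidermal rows moved the other way, with 16 of 43 higher at gastrula and 27 at early neurula.

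**Figure D4:**
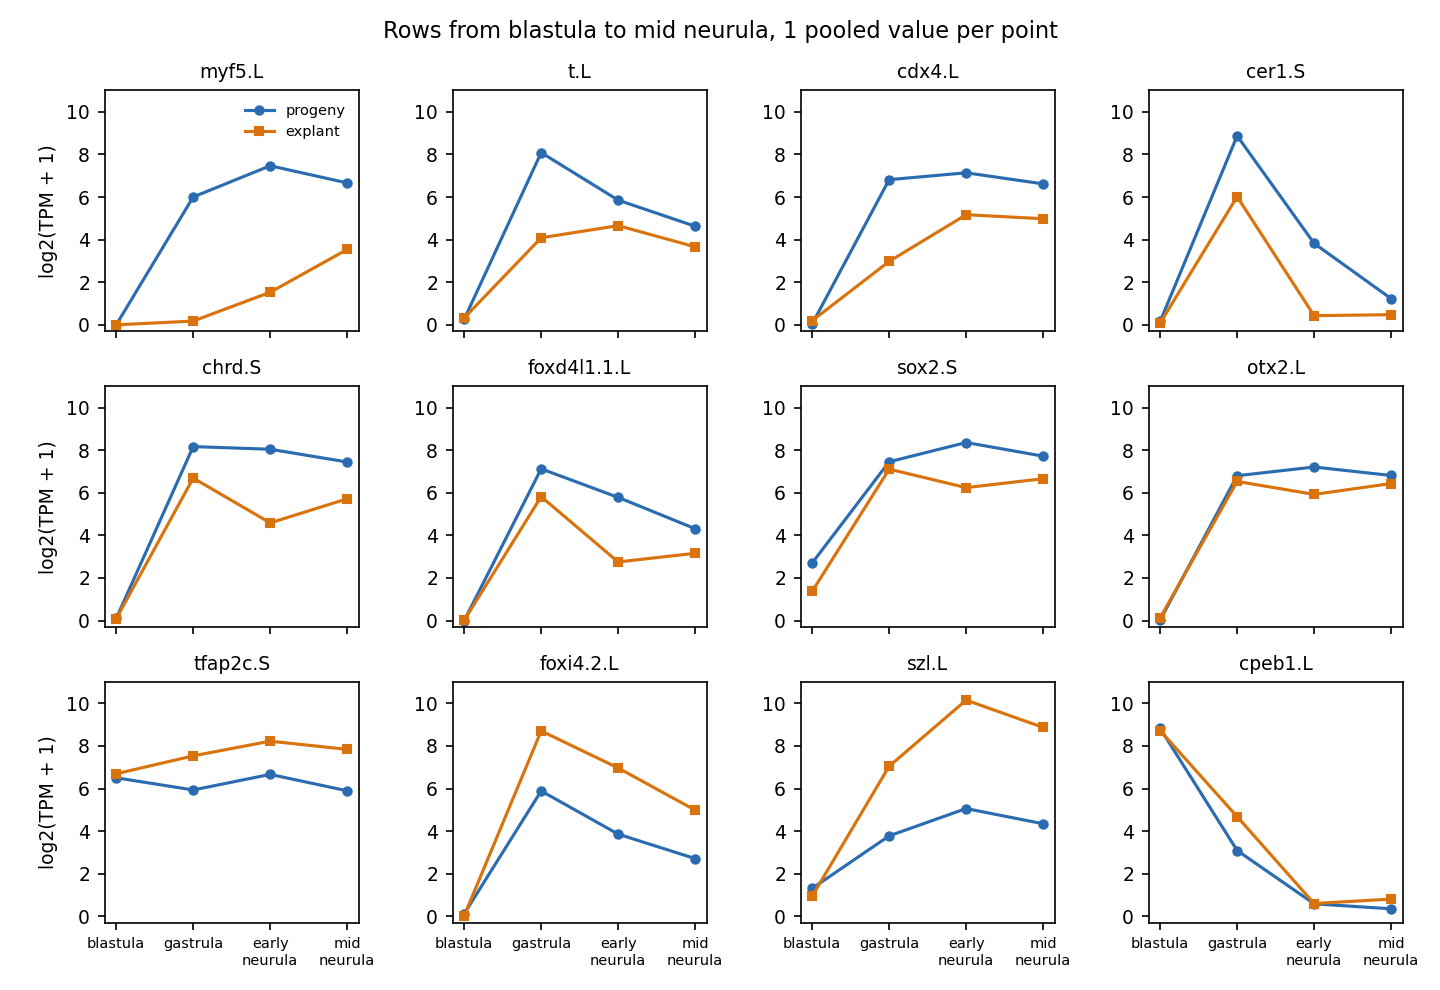
Course of selected rows from blastula to mid neurula in the progeny (blue) and the explants (orange), as log2(TPM + 1) with 1 pooled value per point and no error. The mesoderm and posterior rows myf5.L and cdx4.L are 2-fold apart from gastrula on, t.L and cer1.S are so at gastrula and early neurula, sox2.S and otx2.L lie close together at gastrula and separate at early neurula, tfap2c.S, foxi4.2.L and szl.L are higher in the explants from gastrula on, and cpeb1.L differs at gastrula while both tissues are low at the neurula stages.

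The rows with the most extreme ratios need separate care. Among the 15 named rows with the largest negative differences, 14 were under 1 TPM in both tissues at blastula, and all 15 were lower at both neurula stages. The other one, ugt1a6.S, a glucuronosyltransferase, was already apart at blastula, with 33.9 TPM in the progeny and 0.0377 TPM in the explants. Of the 15 with the largest positive differences, 5 were already 2-fold apart at blastula, and they included the chemokine receptor cxcr3.S, at 0.0432 TPM in the progeny and 24.1 TPM in the explants, and noxo1.L, at 0.0440 and 65.2 TPM. Some exact zeros may be failed estimates, since eef1a1o.S, a translation elongation factor with 7866 TPM in the progeny and 8784 TPM in the explants at gastrula, is listed at 0 in the early neurula explants. Of the rows called at gastrula, 24 are listed at 0 in the progeny and 40 in the explants. The unnamed row Xelaev18029462m is listed at 0 in the progeny and has 4893 TPM in the explants, and no fold is given for it. Apart from that row, the largest gains and losses in TPM were in abundant rows under 2-fold, such as the hyaluronan synthase has1.S, at 3206 and 4237 TPM, and the cold-inducible RNA-binding gene cirbp.S, at 5424 and 4007 TPM.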

How the data were processed

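The series holds 42 RNA-seq samples of Xenopus laevis, and the authors deposited TPM values in 2 tables, 1 for progeny and 1 for explants, each with 1 pooled column for each of 7 stages, per the file headers. TopHat, Bowtie2, Cufflinks and Cuffdiff, with no versions, are listed per the submitters' processing notes. The genome build, the annotation and the pooling step were not given in the sources used here. A test over frogs had been allowed for, which pooled columns do not permit. Each column sums to a nearly fixed total (998948 TPM for progeny and 998667 TPM for explants at gastrula), so TPM shows shares of RNA and keeps no depth, and neither an interval nor a detection floor can be given. Whether the 2 tables were scaled together or separately was not given either.

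Rows were joined by name, kept at 1 TPM or more in any of 14 columns, and compared as log2(TPM + 1) with a pseudocount of 1 and a call at 2-fold, using Python 3.11.15, numpy 2.4.6, pandas 2.3.3 and matplotlib 3.10.9. The code of the calling step was checked on a copy of the progeny column with planted folds and no added noise. That check follows from the 2-fold rule and says nothing about error in the real values. The 25 gene lists hold 963 kept rows, of which 143 stand on more than 1 list. The members and lists were chosen with earlier results of these data known. Rows named by rule were the 15 largest differences in each direction among rows with a symbol and at least 5 TPM, the 6 largest TPM gains and losses, 6 rows per list (the 4 largest differences and the 2 highest levels), their homeologs and a fixed set of anchor genes. Other members named, such as aldh1a2, gata4 to gata6, osr2, foxc2, wnt5b, wnt11b, dkk1, axin2, lef1, spry2, egr1, bmp2, rara, id2, smad7, twsg1, lin28a, mixer, eomes, grhl3, tfap2a, ccno, foxj1, prickle1, epha4, pdgfa, pdgfra, cxcl12, krt18 and twist1, as well as the division of lists by role, were chosen after their values were seen. Alternatives were another pseudocount, other filters, median-of-ratios scaling and homeologs summed. Homeolog rows of similar sequence may share reads, and the labels do not say how the authors assigned them.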

Additional observations from a re-analysis of the deposited data

Results flagged for a closer look

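Of the rows called at gastrula, 15 of the higher and 33 of the lower were called the opposite way at both neurula stages. The 3 with the largest gastrula difference in each direction, among rows with a symbol and at least 5 TPM, are given here. The difference between stages was not tested, since each point is 1 pooled value. The first 3 were higher in the explants at gastrula and lower afterwards. The bZIP factor mafb.L had 2.04 TPM in the progeny and 13.0 TPM in the explants at gastrula (2.20) and 16.7 and 4.97 TPM at early neurula. The serine synthesis gene psat1.L had 13.3 and 37.0 TPM (1.41), then 14.4 and 4.02 TPM. The replication clamp gene pcna.S had 53.8 and 117 TPM (1.11), then 164 and 55.7 TPM.

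The others were lower in the explants at gastrula and higher afterwards. The row val.L had 10.3 TPM in the progeny and 0.603 TPM in the explants at gastrula (-2.81), and 26.3 and 339.9 TPM at early neurula. The transmembrane protease gene tmprss4.L had 37.1 and 7.84 TPM (-2.11), then 2.51 and 8.82 TPM. The ventral homeobox gene ventx3.2.S had 10.5 and 1.87 TPM (-2.01), then 2.50 and 13.2 TPM.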

How the results depend on the processing

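With a pseudocount of 0.1 TPM, 1496 rows were higher and 1881 lower, 709 and 1241 of them low at blastula, 419 and 809 called the same way at both neurula stages, and 77 homeolog pairs were higher and 191 lower in both copies. With 5 TPM the counts were 188 and 387 rows, 60 and 254 of them low at blastula, 60 and 158 called the same way at both neurula stages, and 25 and 66 pairs. A larger pseudocount shrinks the differences of rows with few TPM by construction. Requiring 5 TPM in 1 of the 14 columns left 480 higher and 755 lower rows, with 136 of the higher ones low at blastula. Median-of-ratios scaling gave 472 and 965, a shift of the median of all rows from 0.05 to 0.01, and summing homeologs gave 426 and 691. In alternatives chosen after seeing the data, leaving out rows apart the same way at blastula gave 495 and 812, and leaving out rows listed at 0 in 1 gastrula column gave 557 and 860. Of the values of single named rows under these settings, 1572 stayed on their side of 2-fold, 28 lost the call and 14 gained it. In all, 10 values changed sign, each with homeologs summed and each of a row under 2-fold alone. In 8 of these the sum was under 2-fold too, and the others were myot.S and parp12.L, at 2.75 and 2.51 summed against -0.11 and -0.06 alone, since the sum is carried by their other copies. No paired analysis was possible because the tables hold 1 pooled column per tissue and stage and no frog columns, and for the same reason no frog could be left out in turn.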

Other observations

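Outside the gene lists, 45 pairs of homeologs had both copies lower in the explants and 19 had both higher. These pairs were picked after their values were seen and support no statement about a group. The lower pairs with the largest summed change were gatm, an enzyme of creatine synthesis, and ngfr, the p75 neurotrophin receptor. For gatm the L copy had 924 TPM in the progeny and 390.2 TPM in the explants. For ngfr the L copy had 234 and 30.2 TPM and the S copy 203 and 24.5 TPM, so both copies stood at a similar level and differed by a similar factor. The L copy of esr-5, a bHLH gene of the Enhancer of split family, had 171 and 29.6 TPM, and that of znf703, a zinc finger gene, 54.3 and 3.57 TPM. Of the sterol pathway, dhcr7.S, which encodes the last enzyme of cholesterol synthesis, had 85.7 and 17.5 TPM.

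The higher pairs were led by dynll1, a dynein light chain gene, with 289 TPM in the progeny and 736 TPM in the explants for its L copy and 318 and 675 TPM for its S copy. Several enzymes of central metabolism were among them. Mitochondrial acat1, a thiolase, had 22.8 and 91.5 TPM for its L copy, ahcy.L, of the methionine cycle, had 51.7 and 109 TPM, and eno1.L, of glycolysis, had 69.5 and 146 TPM. The prostaglandin synthase row ptgds.L, which was listed at 0 in both tissues at blastula, had 26.7 and 181 TPM.

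Genes that hypoxia-inducible factor induces in mammals, a list drawn up after the values were seen, had 12 of 49 rows lower, 3 higher and a median of -0.14. The lower rows included ankrd37.L, at 20.8 TPM in the progeny and 1.21 TPM in the explants, the prolyl hydroxylases p4ha1.L, at 48.9 and 6.22 TPM, and egln3.L, at 41.5 and 9.36 TPM. Glucose transporter slc2a1.L had 65.7 and 22.9 TPM, and pfkfb3.S, which promotes glycolysis, had 185 and 62.7 TPM. Their other copies were under 2-fold, at 11.9 and 9.82 TPM for slc2a1.S and 253 and 152 TPM for pfkfb3.L. So was p4ha1.S, whereas ankrd37.S and egln3.S were lower. The higher rows were both eno1 copies and tpi1.L, a further glycolytic gene. At blastula 1 of the 49 rows was 2-fold apart, and at early neurula 20 were lower and 5 higher. Oxygen supply and the medium are not described in the labels, and their part in these values was not tested.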
